A study of Homo sapiens with 6 samples.

Results

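AsPC-1 is an established human cell line grown from pancreatic adenocarcinoma cells in ascites fluid, and its control transcriptome is described here gene by gene. The members were chosen by label and not by any measured value. They are the 3 libraries of AsPC-1 cells transfected with a control small interfering RNA, siControl, out of the 6 libraries of the series, and all 15832 gene symbols listed for them. The other 3 libraries carry siVCPIP1, which targets the deubiquitinase gene VCPIP1, and were not used here. All cells were harvested 48 h after transfection, so no library of untransfected cells enters the description. RNA was extracted as total RNA with Trizol and sequenced after an MGISEQ-2000RS library preparation. Nothing in the labels says whether the 3 replicates came from separate cultures. SDs therefore cover the variation among 3 libraries, and part or all of it may be technical.

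Pancreatic ductal adenocarcinoma is an epithelial tumour that carries features of duct cells, which line the tubes that drain the acini and are held together by keratin filaments and cadherin junctions. Its transcriptomes are often sorted into a classical class, which keeps gut and foregut differentiation genes such as GATA6, trefoil factors and CEACAM glycoproteins, and a basal-like or quasi-mesenchymal class with stratified-epithelium keratins and genes of invasion. Vimentin, an intermediate filament protein of mesenchymal cells, is also made by many carcinoma cells in culture.

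Levels are given in transcripts per 1000000 (TPM), a unit per transcript length in which all libraries sum to the same total. TPM can be set side by side between genes, but it keeps no record of sequencing depth, so the depth behind each value is unknown. The 3 libraries correlated with each other across all listed genes at a Pearson r of 0.995 to 0.997 on log2(TPM + 1). Genes are not independent replicates, and these correlations are descriptions. Replicate 3 stood apart from the others in 2 measures. It listed 774 genes at 0, against 545 and 483 in replicates 1 and 2. These counts depend on which symbols are listed. Only 15 listed genes were at 0 in both replicates 1 and 2, against 240 in replicates 2 and 3 and 260 in replicates 1 and 3. Replicate 3 was also the lowest library for 97 of the 100 genes of largest spread among genes at 20 TPM or more. Results that rest on it are given with and without it.

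In all, 11262 of the 15832 genes, or 71.1%, had a mean of at least 1 TPM and are called expressed here. The number at 1 TPM or more was 11305, 11373 and 11175 in replicates 1, 2 and 3, and 11030 genes reached it in all 3 libraries. The median gene was at 6.85 TPM and the highest gene at 2094 times that level. The share of expressed genes and the median depend on which symbols are listed. Levels were concentrated in few genes: 189 genes held 50% of all TPM, and 3159 genes held 90%. The 151 genes at 1000 TPM or more held 46.6% of TPM with 0.954% of the symbols. The 4394 genes at 1 to under 10 TPM held 2.04%. Genes of the highest class also had short messages: the median transcript length was 1212 bases at 1000 TPM or more and 3898 bases at 1 to under 10 TPM.

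**Figure D1:**
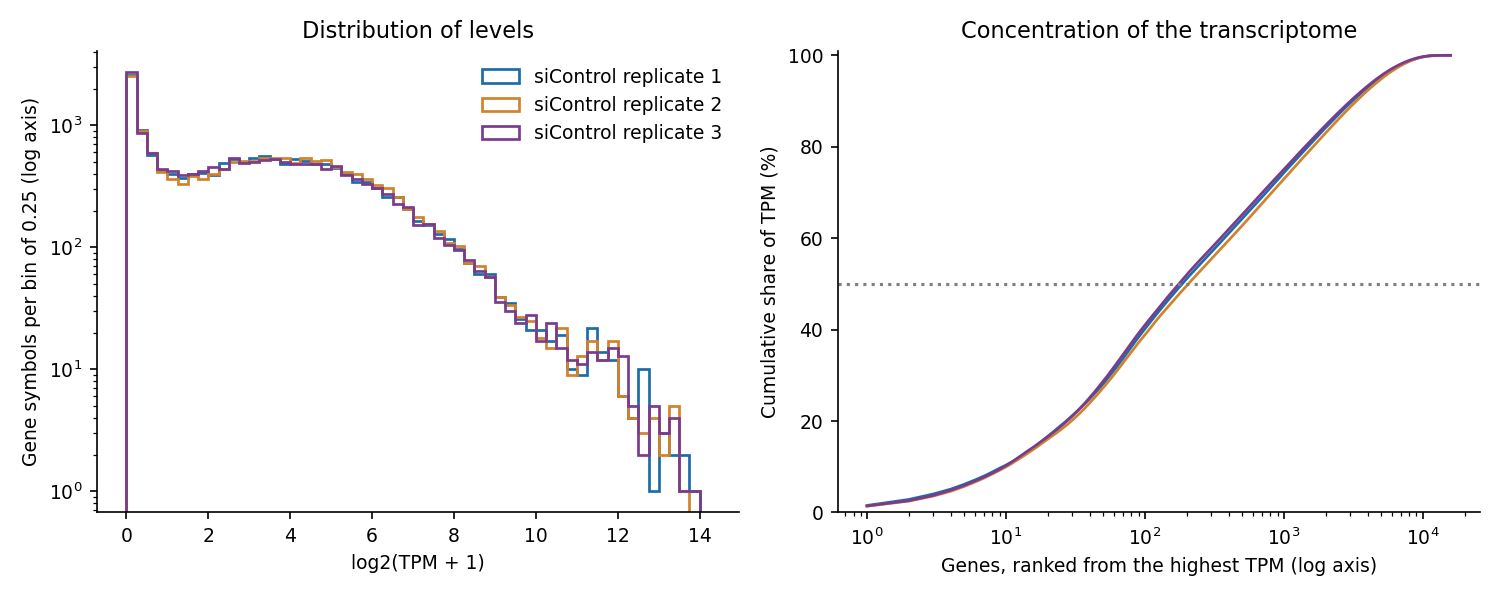
Left, number of gene symbols (log axis) by level in bins of log2(TPM + 1), one line for each siControl library; right, cumulative share of TPM (%) against genes ranked from the highest (log axis), with 50% as a dotted line. The 3 libraries cross 50% at 186, 206 and 176 genes.

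The highest gene was TMSB10, which encodes thymosin beta-10, a small protein that binds actin monomers. It stood at 15273, 13647 and 14099 TPM in replicates 1, 2 and 3, with a mean of 14339.8 ± 839 (SD, n = 3), and was first in every library. Its gene lies on the plus strand of chromosome 2, from 84905625 to 84906675 (GRCh38). The paralog TMSB4X was at 7257 ± 634 TPM (SD, n = 3), and the ratio of TMSB10 to TMSB4X was between 1.81 and 2.33 in the 3 libraries.

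GAPDH, a glycolytic enzyme gene, was second in every library at 13096, 11097 and 11619.7 TPM. Below it the order depended on the library. RPS2, a protein of the small ribosomal subunit, was at 11974, 11051 and 9898 TPM, and FTH1, the ferritin heavy chain that stores iron, was at 10509, 10471 and 11422 TPM. Their ranges overlapped each other and those of RPL41 at 8929 to 11351 TPM and MTRNR2L2 at 8199 to 10493 TPM. Within libraries, RPS2 lay above MTRNR2L2 in each of the 3, and the order of any other pair of these genes changed between libraries. PPIA, the cyclophilin A gene, was at 8077, 8843 and 10433 TPM and ranked 9, 8 and 5 in the 3 libraries.

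Of the 25 highest genes, many encode the machinery of protein synthesis. They include the ribosomal proteins RPS2, RPL41, RPS18, RPL8, RPL7A, RPS3, RPLP0 and RPL26 and the elongation factor subunit EEF1G at 4377 ± 301 TPM (SD, n = 3). Keratin genes in the group were KRT8 at 5495 ± 311 TPM and KRT18 at 4923 ± 404 TPM (SD, n = 3 each). The galectin gene LGALS1 was also in it, at 4669 ± 489 TPM (SD, n = 3). Both ferritin chains were there, with the light chain gene FTL at 5833 ± 309 TPM (SD, n = 3). S100A6, a calcium-binding protein, was at 6646, 6119.8 and 4672 TPM, and replicate 3 was the lowest.

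MTRNR2L2, MTRNR2L9 and MTRNR2L8 also ranked among the 25 highest genes, at 9195, 7489 and 7338 TPM. These loci carry near-identical nuclear copies of the mitochondrial 16S ribosomal RNA gene, so reads of the organelle's RNA can be assigned to them, and their levels are uncertain. The 10 listed MTRNR2L genes held 2.87% ± 0.218 of TPM (SD, n = 3). Messenger RNAs encoded in the mitochondrial genome were not analysed here, since no symbol starting with MT- is listed.

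**Figure D2:**
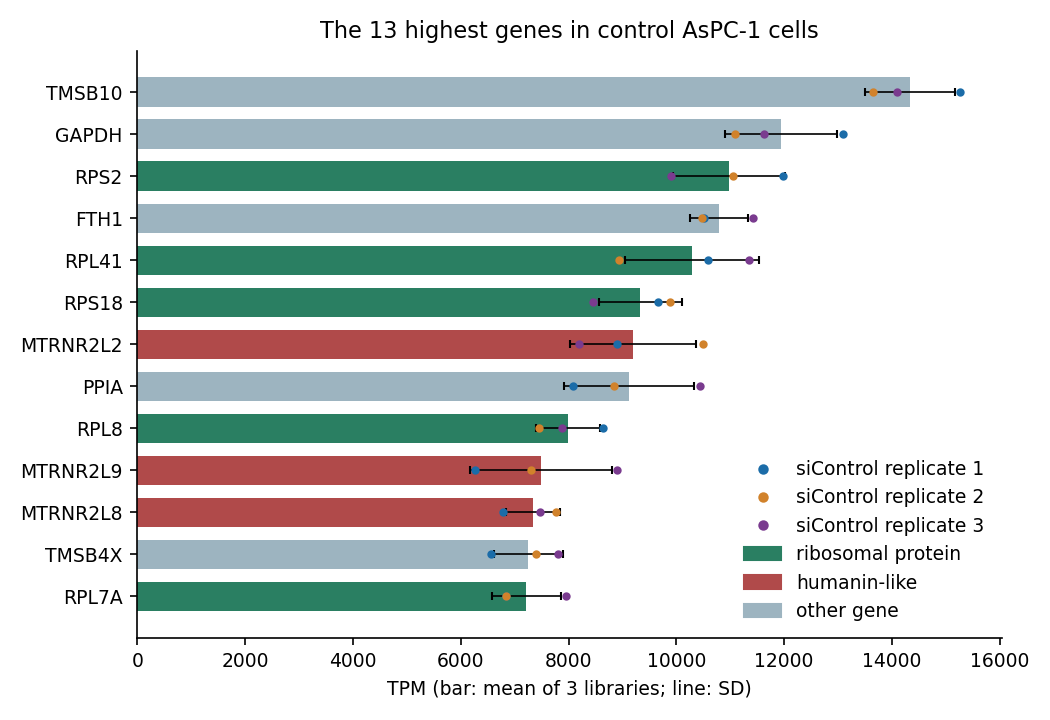
TPM of the 13 highest genes: bars are means of the 3 siControl libraries, lines are SD, and points are the single libraries. TMSB10 lies above GAPDH in each library, while RPS2, FTH1 and RPL41 overlap.

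By family, cytosolic ribosomal protein genes held 23.0% of TPM in replicate 1, 22.0% in replicate 2 and 23.8% in replicate 3, from 88 symbols of which 84 reached 1 TPM. Actin cytoskeleton genes held 4.61% ± 0.110, glycolytic enzymes 2.59% ± 0.148 and the 2 ferritin genes 1.66% ± 0.0586 of TPM (SD, n = 3 each). Keratins held 1.66% ± 0.110 and S100 proteins 1.61% ± 0.122 (SD, n = 3 each), each close to the share of ferritin. The 100 listed olfactory receptor genes, which are read in the sensory epithelium of the nose, held 0.00438% ± 8.4e-05, with 9 of them at 1 TPM or more.

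Outside these families the highest genes after PPIA and LGALS1 were VIM, the chromatin-associated prothymosin gene PTMA at 2986 ± 305 TPM and CSTB, an inhibitor of cathepsins, at 2902 ± 198 TPM (SD, n = 3 each). RACK1, a scaffold on the ribosome, was at 2875 ± 121 TPM, and NME2, a nucleoside diphosphate kinase, at 2651 ± 23.6 TPM (SD, n = 3 each). NME2 varied little, with 2678, 2632 and 2644 TPM in the 3 libraries. PRDX1, NACA and IFITM3 followed, at 2033, 1966 and 1838 TPM. IFITM3 encodes a membrane protein that limits virus entry.

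The label of the cells was set against 6 markers: KRT19, KRT7, KRT18, EPCAM, GATA6 and VIM. Of these, 4 were high and 2, KRT7 and GATA6, were low. KRT18 (chromosome 12, 52948871 to 52952901, plus strand, GRCh38), the simple-epithelium type I keratin, was at 5244, 4469 and 5056 TPM. KRT19 (chromosome 17, 41523617 to 41528308, minus strand), the duct keratin, was at 4665, 3909 and 4114 TPM. EPCAM (chromosome 2, 47345158 to 47387601, plus strand), an epithelial adhesion molecule, was at 162, 196 and 157 TPM. All 3 are genes of simple epithelium.

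KRT7 (chromosome 12, 52232520 to 52252186, plus strand) is the other keratin used to mark ducts. It was at 3.12, 2.13 and 2.54 TPM, with a mean of 2.60 ± 0.497 (SD, n = 3). The ratio of KRT18 to KRT7 was between 1681 and 2098. GATA6 (chromosome 18, 22169443 to 22202528, plus strand), the factor of foregut and classical tumours, was at 5.25, 7.04 and 4.79 TPM and a mean of 5.69 ± 1.19 (SD, n = 3). So KRT7 and GATA6 lay below the median listed gene at 6.85 TPM. VIM (chromosome 10, 17228259 to 17237593, plus strand) was at 3637, 4263 and 3271 TPM, 20.8 to 22.4 times the level of EPCAM.

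Of 14 duct-cell genes listed, 10 were at 1 TPM or more, or 71.4%, beside 71.1% of all genes. A level of 10 TPM or more was reached by 8 of them, or 57.1%, beside 43.4% of all genes, and the list median was 20.7 TPM. The 4 highest were KRT8, KRT18, KRT19 and EPCAM. MUC1, a membrane mucin of duct lumens, was at 55.4 ± 5.66 TPM, SOX9, the duct and progenitor transcription factor, at 34.6 ± 7.31 TPM, and the cadherin CDH1 at 28.9 ± 2.41 TPM (SD, n = 3 each). CA2, the carbonic anhydrase of bicarbonate secretion, was at 14.6, 15.1 and 8.05 TPM, lowest in replicate 3. Of the 4 genes under 1 TPM, the secretin receptor SCTR was at 0.52 ± 0.0529 TPM and the bicarbonate cotransporter SLC4A4 at 0.06 ± 0.0265 TPM (SD, n = 3 each). CFTR, ONECUT1 and SPP1 were not analysed here.

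KRT8, KRT18 and KRT19 together made up 88.3% ± 0.742 of keratin TPM (SD, n = 3). KRT5, a keratin of basal cells in stratified epithelium, was the fourth keratin at 1549.96, 1568 and 1503 TPM, and its usual partner KRT14 was at 15.4, 12.4 and 12.3 TPM. KRT16, a keratin of wounded epidermis, stood at 249 ± 31.6 TPM (SD, n = 3).

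All 17 listed genes of epithelial adhesion and polarity were at 1 TPM or more, beside 71.1% of all genes. SPINT2, an inhibitor of membrane serine proteases, was the highest at 497 ± 44.1 TPM, followed by CLDN4 of tight junctions at 206 ± 10.1 TPM and JUP, plakoglobin, at 193 ± 8.81 TPM (SD, n = 3 each). PKP3 of desmosomes was at 108 ± 11.2 TPM and CLDN7 at 93.5 ± 1.42 TPM (SD, n = 3 each). The lowest were the tight-junction gene OCLN at 1.62 TPM, CLDN3 at 2.13 TPM and MARVELD2 at 2.20 TPM.

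Of 16 mesenchymal genes listed, 9 were at 1 TPM or more, or 56.25%, beside 71.1% of all genes, and 7 below. S100A4 was at 4041 ± 184 TPM, VIM at 3724 ± 502 TPM, the matrix protein TGFBI at 390.5 ± 31.3 TPM and the receptor kinase AXL at 199 ± 22.3 TPM (SD, n = 3 each). ITGA5, an integrin chain that binds fibronectin, was at 59.03 ± 3.74 TPM (SD, n = 3). The transcription factors SNAI1, SNAI2 and ZEB1 were at 13.1 to 16.2, 9.48 to 18.2 and 7.57 to 9.32 TPM. In contrast, fibronectin FN1 was at 0.04, 0.01 and 0.03 TPM, N-cadherin CDH2 at 0, 0.02 and 0.02 TPM and ZEB2 at 0.02, 0.01 and 0.01 TPM. CDH1 was thus above CDH2 in each library, and VIM ranked 36, 23 and 51 among all genes of the 3 libraries.

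For the tumour classes, 21 basal-like genes of the Moffitt scheme were listed, of which 16, or 76.2%, reached 1 TPM with a list median of 8.25 TPM. Of 17 classical genes listed, 9, or 52.9%, did, with a list median of 1.57 TPM. Across all genes these values were 71.1% and 6.85 TPM. At 10 TPM or more were 9 of the basal-like genes, or 42.9%, near the 43.4% of all genes. Of the classical genes 5, or 29.4%, were at that level. The highest genes of this basal-like list were FGFBP1, a carrier of fibroblast growth factors, at 263, 316 and 369 TPM, and SLC2A1, the glucose transporter GLUT1, at 127, 159 and 135 TPM. AREG, a ligand of the EGF receptor, was at 85.5 ± 8.59 TPM, S100A2 at 43.6 ± 2.85 TPM, KRT6A at 43.04 ± 2.52 TPM and FAM83A at 40.7 ± 2.52 TPM (SD, n = 3 each). Not every basal-like gene was present at such a level, since LY6D, CST6, SERPINB3, KRT6C and ANXA8L1 were under 1 TPM.

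Levels in the classical list ran from 0.02 TPM, for BTNL8, to 173 TPM. At 10 TPM or more were 5 genes. CDH17, intestinal cadherin, was at 165, 204 and 151 TPM, MYO1A, a brush-border myosin, at 72.2, 66.9 and 77.5 TPM, and TSPAN8, a tetraspanin, at 56.8, 71.7 and 65.8 TPM. LGALS4, a gut galectin, was at 42.6 ± 3.80 TPM and CLRN3 at 20.8 ± 4.09 TPM (SD, n = 3 each). Of the others, 8 were under 1 TPM, among them KRT20, a keratin of gut epithelium, at 0, 0.15 and 0 TPM. TFF1, TFF2 and TFF3, the trefoil peptides of mucus, were at 0.13 ± 0.113, 1.57 ± 0.375 and 0.0367 ± 0.0635 TPM (SD, n = 3 each). AGR2, a disulfide isomerase of mucin-secreting cells, was at 3.97 ± 0.21 TPM, CEACAM6 at 2.38 ± 0.619 TPM and the gastric protease CTSE at 0.21 ± 0.161 TPM (SD, n = 3 each).

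In the Collisson scheme, of 18 quasi-mesenchymal genes listed, 14, or 77.8%, reached 1 TPM and 12 reached 10 TPM, with a median of 24.7 TPM. They were led by CKS2, a cyclin-dependent kinase subunit, at 533 ± 59.2 TPM, caveolin CAV1 at 462 ± 46.9 TPM and PHLDA1 at 184 ± 23.2 TPM (SD, n = 3 each). Of 22 classical genes, 15, or 68.2%, reached 1 TPM and 10 reached 10 TPM, with a median of 3.995 TPM. Both shares at 1 TPM lay near the 71.1% of all genes. At 10 TPM the shares were 66.7% for the quasi-mesenchymal and 45.5% for the classical genes, beside 43.4% of all genes. MUC13, a gut membrane mucin, led the classical genes at 94.8 ± 9.23 TPM (SD, n = 3). The epithelial factor ELF3 was at 75.1 ± 1.64 TPM and GPRC5A at 58.2 ± 4.68 TPM (SD, n = 3 each).

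Published pairs of genes, in which the basal-like class has the first gene above the second, give an order that needs no scaling between libraries. Both genes were listed for 6 of 8 pairs, and the basal gene was higher in 6 of 6 in each of the 3 libraries. KRT5 was 74.1 times CLRN3, PTGES, a prostaglandin synthase, was 204 times CLDN18, the gastric claudin, and S100A2 was 127 times the iron exporter gene SLC40A1, by mean TPM. BCAR3 was 6.29 times GATA6 and ITGA3, an integrin chain, 3.48 times LGALS4. The closest pair was C16orf74 at 127, 135 and 91.1 TPM against DDC, DOPA decarboxylase, at 67.4, 76.96 and 85.1 TPM, with a ratio of 1.54. In replicate 3 that pair stood at 91.1 against 85.1 TPM. A score of the published classifier was not computed. In the pair of KRT6A with ANXA10, only KRT6A was listed.

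Among transcription factors of foregut and epithelium, 12 of 22 listed were at 1 TPM or more, or 54.5%, beside 71.1% of all genes. ELF3 was the highest, followed by KLF4 at 40.8 ± 4.95 TPM, HNF4A, a nuclear receptor of gut and liver, at 38.5, 39.4 and 38.5 TPM, and SOX9 (SD for KLF4, n = 3). HES1, a Notch target, was at 27.6 ± 2.75 TPM (SD, n = 3). The pioneer factors FOXA1, FOXA2 and FOXA3, which open chromatin in endoderm, were at 0.14, 0.177 and 0.0467 TPM, and TP63, the master factor of basal cells, was at 0.597 ± 0.134 TPM (SD, n = 3). HNF4A was 5.60 to 8.04 times GATA6. PDX1 and GRHL2 were not analysed here.

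Markers of other cells that a pancreatic tumour sample can hold were low. Lists were used for acinar cells, endocrine cells, fibroblasts, leukocytes, endothelial cells, red cells, hepatocytes, neurons and glia, and striated muscle. Of their 166 genes, 96 were listed and the rest were not analysed here. Of the 96, 77 were under 1 TPM and the median was 0.205 TPM. At 1 TPM or more were 19, or 19.8%, beside 71.1% of all genes, whose median was 6.85 TPM. Defining genes were at or near 0: the acinar factor PTF1A at 0, 0.06 and 0 TPM, the leukocyte antigen PTPRC at 0.38, 0.66 and 0.2 TPM, the collagen COL1A2 at 0.07, 0.07 and 0.07 TPM, the fibroblast protease FAP at 0, 0.03 and 0 TPM and albumin ALB at 0.04, 0.04 and 0.04 TPM. The muscle list had no gene at 1 TPM or more. The summed level was 167.8 to 202.7 TPM over libraries for the acinar list, 48.9 to 72.9 TPM for the fibroblast list and 146.1 to 152.2 TPM for the leukocyte list.

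The exceptions at 10 TPM or more were 9 genes. PRSS3, which encodes mesotrypsin, was at 181, 151 and 149.7 TPM while PRSS1, cationic trypsinogen, was at 0.55, 0.46 and 0.23 TPM. CD68, a lysosomal protein, was at 148, 144 and 143 TPM, the alpha-globin gene HBA2 at 99.5, 82.5 and 88.1 TPM and the neuronal tubulin TUBB3 at 87.7, 79.4 and 84.8 TPM. HBA2 and HBA1 have nearly the same sequence, so the split between them is uncertain, and HBB was at 0.68 ± 0.0964 TPM (SD, n = 3). Lumican LUM, a matrix proteoglycan, was at 56.7, 67.4 and 44.05 TPM and its relative decorin DCN at 0.08, 0 and 0.03 TPM. The others were ROBO4 at 31.7, SERPINA1, alpha-1 antitrypsin, at 30.1, the secretory-cell factor BHLHA15 at 16.3 and the granin SCG2 at 14.9 TPM. Every other listed gene of these lists was under 10 TPM.

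**Figure D3:**
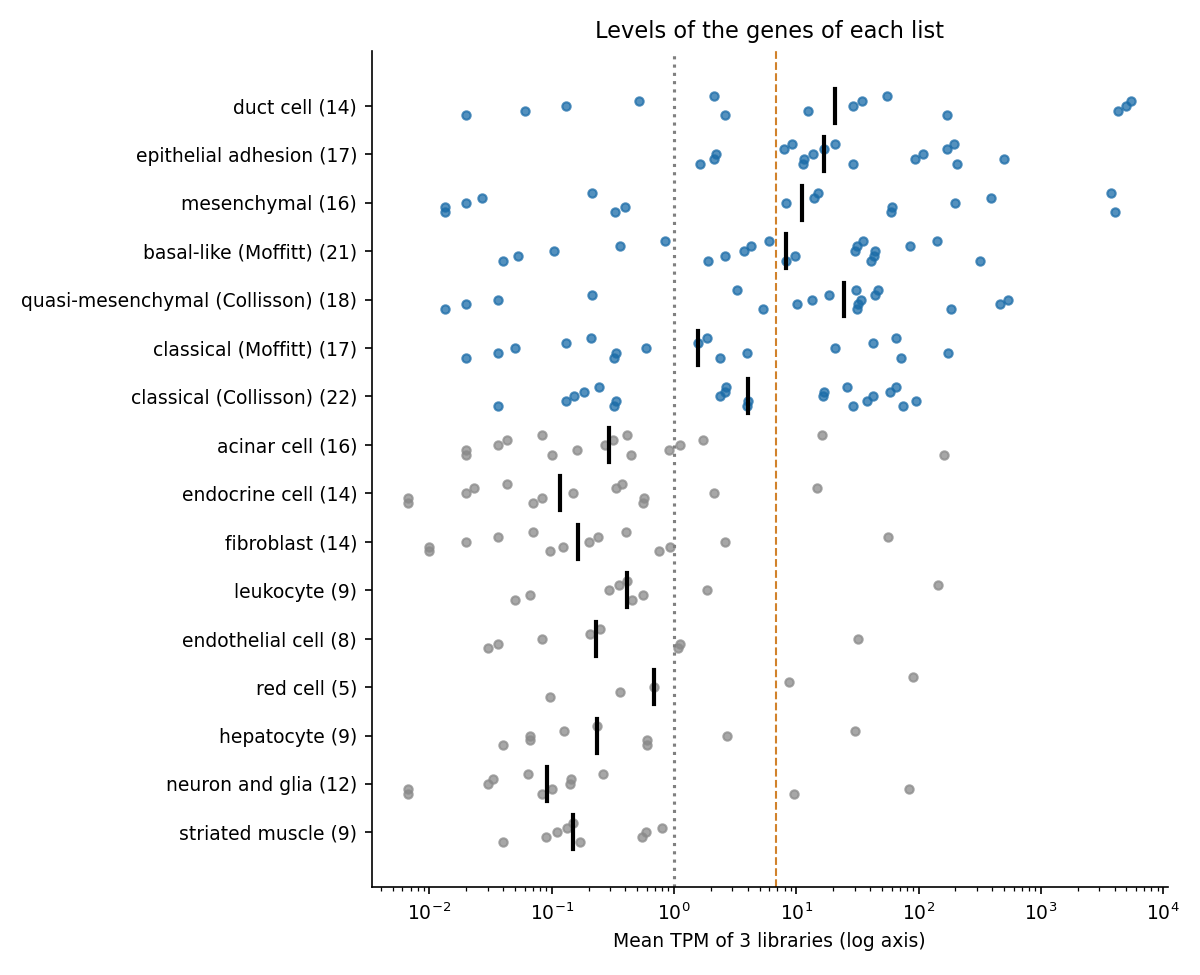
Mean TPM over the 3 siControl libraries (log axis) of each listed gene in 16 lists, with the number of genes in brackets; black bars are list medians, the dotted line marks 1 TPM and the dashed line the median of all genes, 6.85 TPM. Lists of other cell types, in grey, have medians under 1 TPM, and single genes reach 100 TPM in the acinar and leukocyte lists.

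A further 2 gene sets were chosen after the values were seen, because KRT5 and CDH17 stood out, and they are descriptions only. Of 20 listed brush-border genes of the intestine, 13, or 65%, were at 10 TPM or more, with a median of 46.0 TPM. Over all genes these values were 43.4% and 6.85 TPM. CDH17, which prompted the choice, is among the 13. ANPEP, aminopeptidase N, was at 676, 697 and 699.9 TPM. USH1C, a scaffold of microvillus tips, was at 222, 222 and 219 TPM and its complex partner CDHR5 at 106, 94.97 and 84.6 TPM. CDHR2, the cadherin that pairs with CDHR5, was at 64.3 ± 3.52 TPM, EPS8L3 at 207 ± 13.8 TPM and GPA33 at 49.3 ± 4.73 TPM (SD, n = 3 each). Villin VIL1, which bundles actin in microvilli, was lower at 9.83 ± 0.191 TPM (SD, n = 3). The 5 genes of the set under 1 TPM were the fatty acid binding protein FABP2 at 0.07, lactase LCT at 0.0167, the phosphatase ALPI at 0.26, the apolipoprotein APOA4 at 0.557 and KRT20 at 0.05 TPM.

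Of 10 listed genes used as mesothelial markers, 5, or 50%, were at 10 TPM or more, near the 43.4% of all genes. KRT5, which prompted the choice, is among these. The other 5 were under 1 TPM. CALB2, calretinin, was at 939.98, 878 and 951 TPM, UPK3B at 1379, 1228 and 903 TPM and MSLN, mesothelin, at 299, 247 and 239 TPM. MUC16, the CA125 antigen that binds mesothelin, was at 27.5 ± 1.88 TPM (SD, n = 3). The mesothelial factor WT1 was at 0, 0.04 and 0.04 TPM, podoplanin PDPN at 0.02, 0.07 and 0.1 TPM and LRRN4 at 0, 0.06 and 0 TPM. The calretinin, uroplakin and mesothelin genes were thus high in libraries where WT1 was near 0.

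Of 27 genes often mutated in pancreatic adenocarcinoma, 24 were at 1 TPM or more, or 88.9%, beside 71.1% of all genes. At 10 TPM or more were 8, or 29.6%, below the 43.4% of all genes, and the list median was 4.64 TPM. Mutations cannot be read from a table of levels. GNAS, a G-protein subunit, was at 358, 401 and 295 TPM and CDKN2A, which encodes 2 tumour suppressors, at 156, 175 and 134 TPM. CDKN2B, its neighbour on chromosome 9, was at 5.61, 6.72 and 4.08 TPM, so the ratio of CDKN2A to CDKN2B was 26.0 to 32.8. STK11, SF3B1, RBM10, SMARCA4 and TGFBR2 followed at 51.2, 45.5, 38.1, 36.01 and 33.3 TPM. SMAD4, the transducer of TGF-beta signals, was at 4.06, 4.41 and 3.66 TPM, in the range of 1 to under 10 TPM that holds 27.8% of genes. MAP2K4, a kinase upstream of JNK, was at 0, 0.07 and 0 TPM, and RNF43, a ubiquitin ligase that removes Wnt receptors, at 0.15, 0.25 and 0.26 TPM.

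Of 25 listed surface proteins used as tumour antigens or drug targets, 17 were at 10 TPM or more, or 68.0%, beside 43.4% of all genes. PLAUR, the urokinase receptor, led at 649, 697 and 699 TPM, followed by MSLN, CLDN4 and CDH17. TSPAN1 was at 158 ± 11.8 TPM and tissue factor F3 at 111, 126 and 84.3 TPM (SD for TSPAN1, n = 3). CEACAM5, the carcinoembryonic antigen, was at 0.243 ± 0.0231 TPM, CLDN18 at 0.267 ± 0.0115 TPM and the mucins MUC4 and MUC5AC at 0.0133 ± 0.0115 and 0.547 ± 0.102 TPM (SD, n = 3 each).

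Of 15 listed genes of immune evasion, 11 were at 1 TPM or more, or 73.3%, beside 71.1% of all genes. NECTIN2 was the highest at 222 ± 16.2 TPM, followed by HHLA2 at 194 ± 11.7 TPM and HLA-E at 161 ± 3.69 TPM (SD, n = 3 each). Each encodes a ligand of receptors on lymphocytes. CD276, another B7 family member, was at 39.03 ± 1.78 TPM (SD, n = 3). CD274, which encodes PD-L1, was at 1.43, 0.42 and 0.44 TPM, so only replicate 1 passed 1 TPM.

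Of 28 listed genes that handle chemotherapy drugs, 25 were at 1 TPM or more, or 89.3%, beside 71.1% of all genes. At 10 TPM or more were 19, or 67.9%, beside 43.4% of all genes, and 7 were at 100 or more. CDA, cytidine deaminase, which inactivates gemcitabine, was at 667, 632 and 626 TPM. DCK, the kinase that activates the drug, was at 16.8, 20.3 and 7.75 TPM, lowest in replicate 3. The ratio of CDA to DCK was 39.7, 31.2 and 80.8 in replicates 1, 2 and 3, and without replicate 3 it therefore lay under 40. The nucleoside transporters SLC29A1 and SLC29A2 were at 33.1 ± 1.65 and 22.7 ± 3.08 TPM (SD, n = 3 each). TK1, TYMS, NT5C, UPP1 and CES2 were at 268, 206, 195, 156 and 119 TPM. TYMS is the target of fluorouracil, and CES2 activates irinotecan.

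Of 40 listed Wnt pathway genes, 26 were at 1 TPM or more, or 65%, beside 71.1% of all genes. At 10 TPM or more were 8, or 20%, below the 43.4% of all genes. Beta-catenin CTNNB1 was at 72.1, 82 and 63.8 TPM, PORCN, which acylates Wnt ligands, at 69.7, 67.5 and 60.8 TPM, the coreceptor LRP5 at 62.3, 66.7 and 49.03 TPM and AXIN1 at 42.9 ± 2.63 TPM (SD for AXIN1, n = 3). The ligand WNT10A was at 12.7, 11.7 and 9.66 TPM. Known Wnt target genes lay at different levels, with AXIN2 at 0.06, 0.13 and 0.12 TPM, the ubiquitin ligase ZNRF3 at 2.59, 2.24 and 2 TPM, LEF1 at 0.1, 0.04 and 0.12 TPM and NKD1 at 0.08, 0.06 and 0.05 TPM. Of 13 Hedgehog pathway genes, 4 were at 1 TPM or more, or 30.8%: SUFU at 10.9, GLI1 at 6.89, GLI2 at 2.73 and PTCH1 at 1.24 TPM. The transducer SMO was at 0.09, 0.13 and 0.06 TPM, and the ligand SHH at 0.2, 0.33 and 0.54 TPM.

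All 20 proliferation genes were at 10 TPM or more, beside 43.4% of all genes, with a median of 125.8 TPM. UBE2C, a ubiquitin-conjugating enzyme of mitotic exit, was at 1017, 1137 and 1223 TPM, CDC20, an activator of the same ubiquitin ligase step, at 446, 408 and 391 TPM and AURKB at 299.8, 266 and 273 TPM. TPX2, TYMS and CCNB1 were at 226, 206 and 199 TPM, and MKI67, the Ki-67 antigen, at 29.01 ± 1.13 TPM (SD, n = 3).

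The cells had received a double-stranded small RNA, and the genes that carry out or sense such RNA were listed for that reason. Of 13 genes of RNA interference, 12 were at 1 TPM or more, or 92.3%, beside 71.1% of all genes. TARBP2 and PRKRA, the partners of Dicer, were at 86.8 ± 7.60 and 52.5 ± 5.26 TPM (SD, n = 3 each). The slicer AGO2 was at 6.07, 7.21 and 5.45 TPM and DICER1 at 3.76, 4.16 and 2.09 TPM. Of 33 genes of double-stranded RNA sensing and interferon response, 27 were at 1 TPM or more, or 81.8%. At 10 TPM or more were 21, or 63.6%, beside 43.4% of all genes. ISG15, a ubiquitin-like modifier, was at 1980.2, 1542 and 1422 TPM and OASL at 851, 831 and 888 TPM. OAS1, IRF3, IFI6 and IFIT3 were at 172, 122, 93.9 and 73.8 TPM. MX1, an interferon-induced GTPase, was at 0.72, 1.08 and 1.04 TPM, IFI44L at 0.15, 0.11 and 0.15 TPM and interferon beta IFNB1 at 0.11, 0.22 and 0.11 TPM. No untransfected cells were analysed here, so the effect of transfection on these levels was not tested.

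VCPIP1, the gene targeted in the other arm of the series, was at 2.93, 3.06 and 2.24 TPM with a mean of 2.74 ± 0.441 (SD, n = 3). Its partner VCP, the p97 ATPase, was at 177, 197 and 184 TPM.

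At the low end, 4570 genes had a mean under 1 TPM and 1916 a mean under 0.1 TPM. At 0 in all 3 libraries were 10 of the listed symbols, and silent genes with no listed symbol are not counted. With 1 library left out the number was 240 without replicate 1, 260 without replicate 2 and 15 without replicate 3. The 10 were USP17L1, USP17L13, USP17L19, USP17L20, USP17L24, USP17L25 and USP17L28, which are near-identical copies of a deubiquitinase gene, and CCN4, TPSAB1 and GPRC6A. Reads of near-identical copies can be split or dropped in counting, so the 0 of the USP17L copies is uncertain. TPSAB1 encodes mast cell tryptase and CCN4 a matricellular protein. In at least 1 library 1297 genes were listed at 0, and 7 genes were at 0 in exactly 1 library with at least 1 TPM in the others. Of 17 listed cancer-testis and germ cell genes, 16 were under 1 TPM and 1, or 5.88%, was at 1 TPM or more, beside 71.1% of all genes. MAGEA1, among the 16, was at 1.10, 1.04 and 0.6 TPM, and its mean passed 1 TPM without replicate 3. The exception was POU5F1 at 5.66 ± 0.337 TPM (SD, n = 3), a pluripotency factor gene with expressed pseudogenes of nearly the same sequence, so its level is uncertain.

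The SD of log2(TPM + 1) over the 3 libraries had a median of 0.149 for expressed genes (n = 11262), and the median coefficient of variation was 11.6%. Of expressed genes, 40.6% had a coefficient under 10%, and 128 had an SD over 0.5. The median coefficient was 14.6% at 1 to under 10 TPM and 9.53% at 1000 TPM or more. Between replicates 1 and 2, 99.3% of expressed genes lay within 1.5-fold in TPM + 1, a scale on which folds of genes near 1 TPM look smaller. Between replicates 1 and 3 the share was 95.7%, and between 2 and 3 it was 93.2%.

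Among genes at 20 TPM or more, LDLRAD2 had the largest spread, with 49.1, 33.2 and 10.4 TPM. BBLN, a bublin coiled-coil gene, was at 151, 121 and 49.6 TPM, PPDPF at 546, 453 and 218 TPM and GEM, a small GTPase, at 34.9, 38.5 and 15.7 TPM. C4orf48, NBL1, TMEM160, UBXN4 and ZNRF1 completed the group in which replicate 3 was the lowest. Replicates 1 and 2 differed from each other by 1.04-fold to 1.48-fold for these 9 genes, while the highest library was 2.13 to 4.71 times the lowest. U2AF1L5 went the other way, at 37.4, 40.9 and 118 TPM with replicate 3 the highest. It is a near-identical copy of the splicing factor gene U2AF1, so its level is uncertain. At the other end, SUPT5H, an elongation factor of RNA polymerase II, was at 65.5, 65.4 and 65.5 TPM, APH1A at 140.2, 141 and 140.3 TPM, RBM19 at 31.8, 31.6 and 31.7 TPM, PPP1R18 at 69.2, 69.6 and 69.5 TPM and the kallikrein KLK10 at 242, 241 and 243 TPM. Over all expressed genes the libraries were closer: replicate 3 was the library apart on the low side for 27.6%, replicate 2 on the high side for 25.6% and replicate 1 on the low side for 20.8%. The median absolute difference of log2(TPM + 1) was 0.175 between replicates 1 and 2, 0.184 between 1 and 3 and 0.175 between 2 and 3.

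The deviation of a library moved with the GC content of the transcript. Expressed genes were cut into 10 bins of equal number, and each library was set against the mean of the other 2, as median differences of log2(TPM + 1). In the bin of lowest GC content, up to 39.01%, replicate 2 lay at 0.29 and replicate 3 at -0.30. In the bin of highest, from 62.7%, replicate 1 lay at 0.24 and replicate 3 at -0.25. Between 46.8% and 49.9% GC, replicates 1, 2 and 3 lay at -0.13, 0.12 and 0.02. The median SD was 0.211 in the lowest and 0.185 in the highest bin, against 0.0961 between 56.3% and 59.2% GC. Its part in the spread of single genes was not tested.

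**Figure D4:**
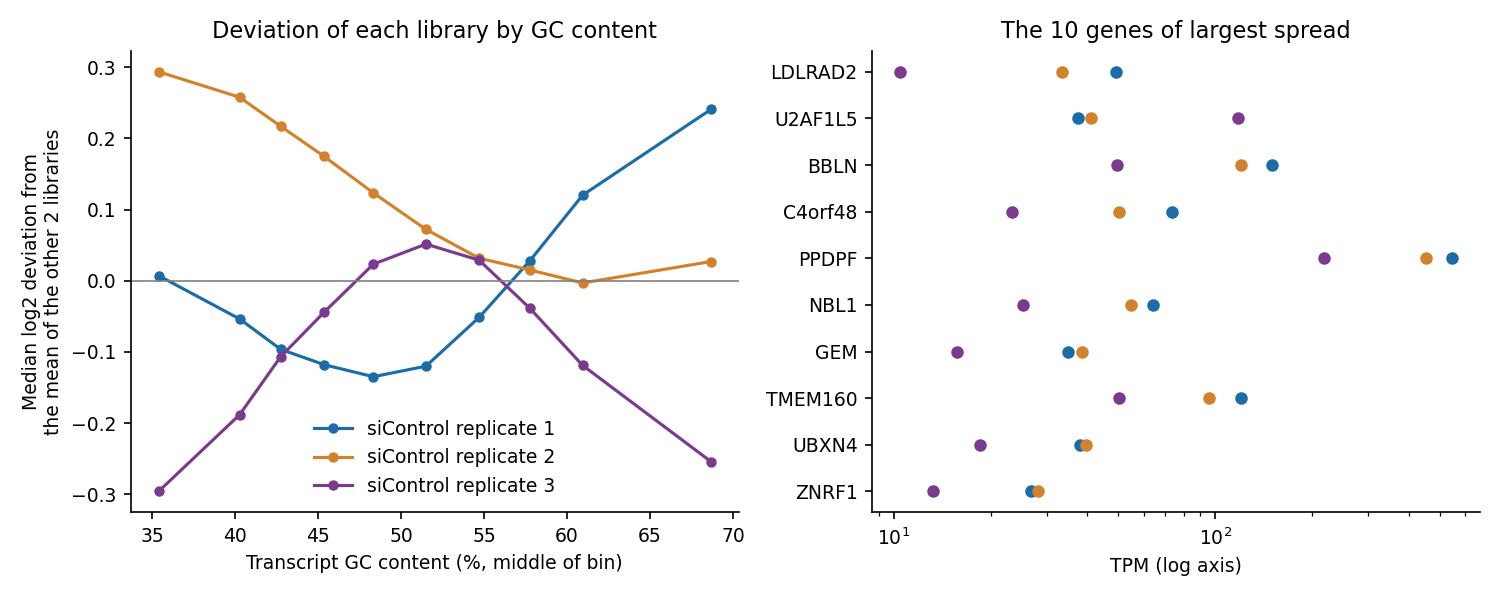
Left, median log2 deviation of each siControl library from the mean of the other 2, over 10 bins of expressed genes by transcript GC content (%); right, TPM (log axis) of the 10 genes of largest spread in each library. Replicate 3 is low at both GC ends and lowest in 9 of the 10 genes, and highest for U2AF1L5.

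Genes used as references in quantitative PCR were all at 10 TPM or more (30 of 30), beside 43.4% of all genes. Their coefficients of variation had a median of 9.58%, and 7 were under 5%. RPL13A was the steadiest at 4242, 4388 and 4175 TPM. HPRT1 varied most, at 56.5, 74.2 and 44.4 TPM, a fold of 1.67 between replicates 2 and 3. ACTB was at 3144, 3600.0 and 3836 TPM and B2M at 1303, 1605 and 1251 TPM. In 19 of the 30 genes replicate 1 was the lowest library.

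Promoter letters were read for the listed genes, because CpG content and short motifs are known to differ between genes read in most cells and genes read in few. RefSeq promoters of 300 bases, from 250 before to 50 after a start site (GRCh38.p14), matched 12667 of the 15832 genes. CpG observed over expected is the number of CG pairs divided by that from the C and G content of the window. It was over 0.6 in 45.3% of promoters of genes under 0.1 TPM and in 49.5% of those at 0.1 to under 1 TPM. The share was 79.5% at 1 to under 10 TPM, 86.5% at 10 to under 100 TPM, 87.8% at 100 to under 1000 TPM and 86.4% at 1000 TPM or more. The largest step thus lay at about 1 TPM, and classes from 10 TPM up differed little. In 7792 of the 12667 promoters the start lay within 100 bases of the GENCODE start. Among these the share was 83.1% at 1 to under 10 TPM, 91.2% and 92.6% in the next classes and 95.4% at 1000 TPM or more. That last class held only 65 promoters.

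The promoters of 5 genes show the range of letters. Each is printed from 5′ to 3′ on the strand of its gene and ends before the RefSeq or GENCODE 29 start, whichever comes first. Capitals mark CG pairs and the motifs TATAAA and TCGCGA on the printed strand only. TMSB10 (chr2:84905406-84905624, plus strand) is shown as the highest gene, and its window had a CpG value of 0.833.
TMSB10: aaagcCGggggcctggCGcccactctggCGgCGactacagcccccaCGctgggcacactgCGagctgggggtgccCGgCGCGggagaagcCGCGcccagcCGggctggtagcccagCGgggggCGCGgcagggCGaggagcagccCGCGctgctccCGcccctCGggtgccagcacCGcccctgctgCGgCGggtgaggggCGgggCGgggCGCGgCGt
RPL7A (chr9:133347968-133348213, plus strand) is shown as a ribosomal protein gene with the TCGCGA motif, whose first base lies 45 bases before the RefSeq start. The gene was at 7217 ± 645 TPM (SD, n = 3).
RPL7A: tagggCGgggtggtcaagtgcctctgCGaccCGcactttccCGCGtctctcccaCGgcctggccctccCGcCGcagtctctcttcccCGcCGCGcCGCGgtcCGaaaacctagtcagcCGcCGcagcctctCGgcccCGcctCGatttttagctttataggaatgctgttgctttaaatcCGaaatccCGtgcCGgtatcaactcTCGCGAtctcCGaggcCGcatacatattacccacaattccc
PPIA (chr7:44796431-44796679, plus strand) is shown as a high gene with a TATAAA, first base 31 bases before the start, within a CpG-rich window.
PPIA: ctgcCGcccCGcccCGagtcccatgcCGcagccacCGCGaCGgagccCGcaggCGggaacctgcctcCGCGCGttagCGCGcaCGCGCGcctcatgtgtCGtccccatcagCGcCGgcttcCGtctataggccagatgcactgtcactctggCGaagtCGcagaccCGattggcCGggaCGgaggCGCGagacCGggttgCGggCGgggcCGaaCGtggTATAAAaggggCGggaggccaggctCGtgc
FGFBP1 (chr4:15938741-15938990, minus strand), the highest gene of the Moffitt basal-like list, and CEACAM5 (chr19:41708376-41708617, plus strand), a classical gene at 0.243 TPM, are shown as CpG-poor promoters at different levels, each with 2 CG pairs.
FGFBP1: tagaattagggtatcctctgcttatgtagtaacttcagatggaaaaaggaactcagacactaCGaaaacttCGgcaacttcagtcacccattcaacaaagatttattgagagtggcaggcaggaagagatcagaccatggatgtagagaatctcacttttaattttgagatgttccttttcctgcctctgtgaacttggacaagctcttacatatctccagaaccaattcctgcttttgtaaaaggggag
CEACAM5: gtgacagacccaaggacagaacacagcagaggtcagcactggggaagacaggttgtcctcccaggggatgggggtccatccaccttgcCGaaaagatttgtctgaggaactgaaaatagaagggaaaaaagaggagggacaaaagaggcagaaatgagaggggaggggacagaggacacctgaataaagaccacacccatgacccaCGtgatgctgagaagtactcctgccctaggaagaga
The windows of FGFBP1 and CEACAM5 had CpG values of 0.228 and 0.0972. Both genes were picked as CpG-poor, so this pair cannot show whether CpG content goes with level.

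The TATA box letters TATAAA, searched anywhere in the window on both strands, were in 11.7% of promoters under 0.1 TPM, 4.42% at 10 to under 100 TPM and 10.2% at 1000 TPM or more. They were in 7.01% of the 12667 matched promoters of listed genes and 11.95% of all 27305 promoters of the table. On the strand of the gene, TATAAA starting 40 to 20 bases before the start was in 4.42%, 1.21% and 5.08% of the same classes. Beside this stood 2.43% of matched promoters and 2.55% of the table. That position was added after the data were seen. The ETS motif CCGGAAG was in 5.06% of promoters under 0.1 TPM and 24.6% at 1000 TPM or more, beside 16.9% of matched promoters and 10.7% of the table. The motif core TCGCGA, known as the site of BANP, was in 2.04% and 11.9%, beside 5.12% of matched promoters and 3.16% of the table. The YY1 core AAGATGG was in 3.58% and 11.02%, beside 6.86% of matched promoters and 6.06% of the table. Of 52 ribosomal protein promoters at 1000 TPM or more, 12 held TCGCGA and 19 held CCGGAAG, while 2 and 10 of the 66 other promoters of that class did. A match is a description of letters and says nothing of binding.

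**Figure D5:**
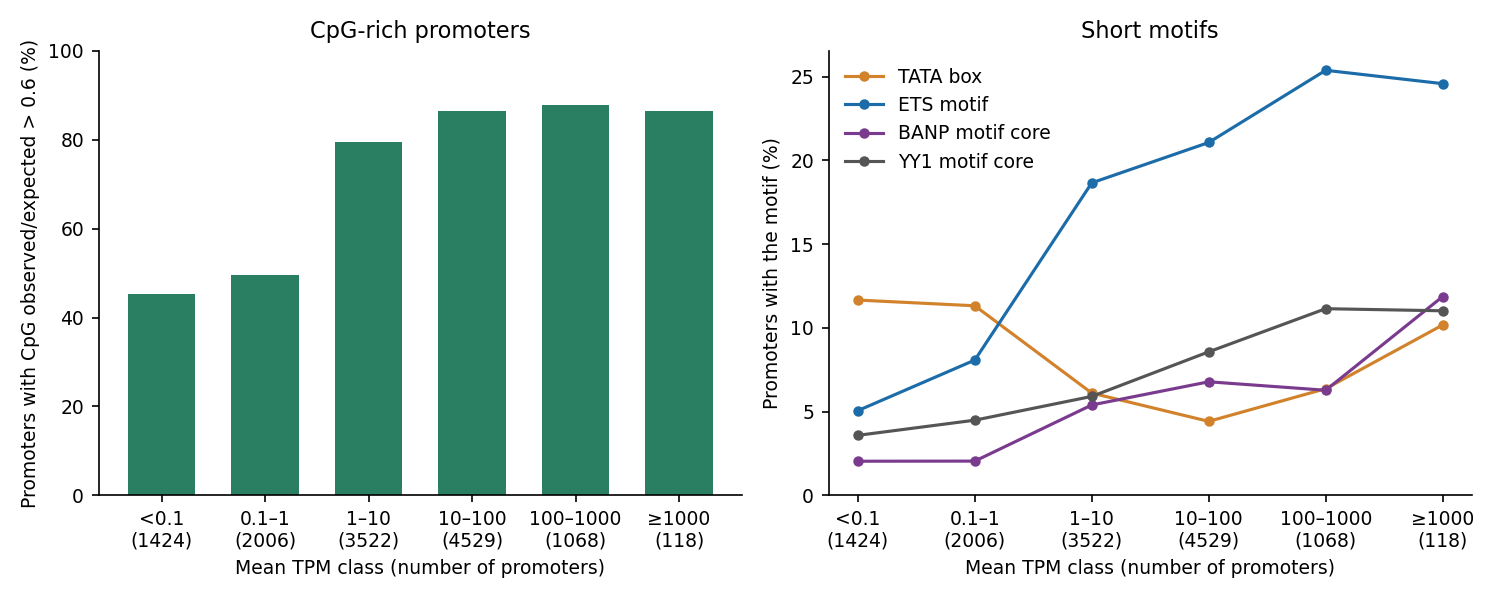
Left, share (%) of promoters with CpG observed over expected above 0.6 by class of mean TPM, with the number of promoters; right, share (%) of promoters with the TATA, ETS, BANP or YY1 letters on either strand. CpG-rich promoters go from 45.3% under 0.1 TPM to 86.4% at 1000 TPM or more, and the TATA share is lowest at 10 to under 100 TPM, 4.42%.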

How the data were processed

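The deposited table holds TPM values made by the authors from 6 AsPC-1 libraries, per the file headers; only its 3 siControl columns were used. GRCh38.p13 is named in the submitters' processing notes. Nothing in the labels or headers names the aligner, counter or annotation. TPM has no record of depth, so no intervals or detection limits were computed. No groups were compared and no test was run; values are means with SD over 3 libraries, and spread is the SD of log2(TPM + 1). The gene lists and members were chosen with earlier results of these data known. Genes named in the text are the 6 markers and VCPIP1, the 25 highest, up to 6 highest of each list, members at 10 TPM or more and near-0 members of other-cell lists, both genes of each subtype pair, the 10 largest and 5 smallest spreads at 20 TPM or more, and the 10 highest outside families; any other gene, the brush-border and mesothelial sets and the MTRNR2L family were chosen after values were seen. Some genes that the rule names are not reported here. Transcript length and GC content came from GENCODE 29, matched for 15611 genes (98.6%), and promoters from RefSeq (80.0% of genes). Python 3.11.15 with pandas 2.3.3 was used, and the spread calculation was tested on simulated data.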

Additional observations from a re-analysis of the deposited data

How the results depend on the processing

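The count of expressed genes lay between 10414 and 12099 over its other thresholds and scalings. Leaving out 1 library gave 11224 to 11324. Genes listed at 0 numbered 1297 when 1 library at 0 sufficed and 1916 with a mean under 0.1 TPM, and 15 to 260 with 1 library left out: 240 without replicate 1, 260 without replicate 2 and 15 without replicate 3. With ribosomal protein genes taken out, 341 genes held 50% of TPM, against 181 to 196 with 1 library left out. The ribosomal share was 22.5% to 23.4% with 1 library left out and 23.6% without MTRNR2L genes. Of the 96 genes of other cell types, 31 reached 0.5 TPM, 14 reached 2 TPM and 19 to 21 reached 1 TPM with 1 library left out. The basal-like and classical counts of 16 and 9 did not change when a library was left out, and 5 of 6 pairs had a basal gene at 2 times the classical one or more. The median SD was 0.165 with a pseudocount of 0.1, 0.139 with median-of-ratios scaling, 0.133 with quantile normalization and 0.127 with no filter. It was 0.123 to 0.130 over 2 libraries, where an SD over fewer values is smaller by construction. Promoters with CpG over 0.6 made up 95.4% at 1000 TPM or more and 42.7% under 0.1 TPM when the start lay within 100 bases of the GENCODE start, an alternative added after the data were seen. The cause of these differences was not tested except where stated. Among the other values, 84 of 84 mean levels of named genes moved by less than 1 SD under median-of-ratios scaling or quantile normalization. A mean of 3 values cannot move by 1 SD when one is left out, so leaving out a library says nothing of their stability. Shares of families other than ribosomal proteins moved by more than 1 SD in 23 of 35 cases with ribosomal protein or MTRNR2L genes taken out, where the total is smaller by construction. Counts of genes at 1 TPM in single lists moved by over 1.5 times in 8 of 93 cases with another threshold and in 1 of 93 with a library left out, the cancer-testis list without replicate 3. No paired analysis was possible because a single group was described and no test was made. Unknown depth limits every statement on genes near 0.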

Other observations

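HOX genes encode transcription factors that set position along the body axis. Of 26 listed, 19 were at 1 TPM or more, or 73.1%, beside 71.1% of all genes. At 10 TPM or more were 9, or 34.6%, beside 43.4% of all genes. HOXB7 was at 34.6, 36.4 and 44.1 TPM, HOXC10 at 36.2, 37.5 and 38.2 TPM, HOXB6 at 36.4, 40.4 and 28.8 TPM and HOXB2 at 26.7, 35.1 and 29.7 TPM. HOXB3, HOXB5, HOXB8 and HOXB4 were at 22.8, 17.5, 16.2 and 14.8 TPM, so 7 neighbours from HOXB2 to HOXB8 were all above 10 TPM. HOXB9, next in the cluster, was at 1.59 ± 0.146 TPM and HOXB13 at 0.68 ± 0.171 TPM (SD, n = 3 each). In the HOXC cluster, HOXC11 was at 12.6 ± 0.964 TPM beside HOXC8 at 0.95 ± 0.157 TPM (SD, n = 3 each). The 9 listed HOXA genes lay between 0.0167 and 7.72 TPM. HOXD genes were not analysed here.

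Of 40 listed nuclear receptor genes, 28 were at 1 TPM or more, or 70.0%, beside 71.1% of all genes. NR1H3, the oxysterol receptor LXR-alpha, was the highest at 120.04, 102 and 105 TPM. ESRRA was at 70.4 ± 8.23 TPM and PPARG, the receptor of fat cell differentiation, at 67.97, 73.7 and 65.4 TPM (SD for ESRRA, n = 3). RARG, NR1H2 and NR2F6 were at 54.1, 53.1 and 47.2 TPM. The estrogen receptors ESR1 and ESR2 were at 0.163 ± 0.0306 and 0.217 ± 0.0643 TPM, and the acinar receptor NR5A2 at 0.0433 ± 0.0513 TPM (SD, n = 3 each).

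Beside CDKN2A on chromosome 9, MTAP, which salvages methionine, was at 5.76, 6.93 and 5.28 TPM and KLHL9 at 3.03, 2.78 and 2.62 TPM. In the neighbourhoods of CDKN2A and SMAD4, 9 genes were listed, with CDKN2A and SMAD4 among them. Of the 9, 8, or 88.9%, were at 1 TPM or more, beside 71.1% of all genes. At 10 TPM or more was 1, or 11.1%, beside 43.4% of all genes. The list median was 5.47 TPM, beside 6.85 TPM for all genes. MEX3C and ME2, near SMAD4, were at 6.33, 7 and 3.31 and 8.06, 10.2 and 5.92 TPM, each lowest in replicate 3.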
